A study of Mus musculus with 18 samples.

Results

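Homeostatic microglia genes are the transcripts by which resting microglia of the healthy brain are usually recognised. The 9 genes described here are P2ry12, P2ry13, Tmem119, Cx3cr1, Siglech, Csf1r, Gpr34, Olfml3 and Aif1, taken by symbol from the 55270 genes of the deposited table. All 9 were present and all 9 passed the filter on low values, which kept 19443 genes. Expression was measured by poly-A RNA sequencing of the substantia nigra, a midbrain nucleus rich in dopaminergic neurons, in 3 groups of 6 mice aged 3 months. The intact group is labelled wild type, and its label names no virus or injection. The AAV-GFP group overexpressed green fluorescent protein and the AAV-SIRT3 group overexpressed SIRT3, a mitochondrial deacetylase, each from an adeno-associated virus (AAV) given about a month before the tissue was taken. The promoter, serotype and transduced cell type of the viruses are not given in the sources used here. In a comparison with intact mice, the virus, its delivery and the transgene therefore cannot be told apart.

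Microglia are the resident macrophages of the brain. They depend on signalling through the receptor encoded by Csf1r, extend processes towards nucleotides released by other cells through P2Y receptors, and exchange signals with neurons through Cx3cr1. In many injury and disease settings, receptors such as P2ry12 and Tmem119 are lowered while lysosomal, lipid-handling and phagocytic genes are raised, so the homeostatic genes are often read beside an activated set.

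Of these 9 genes, Aif1 was higher in both AAV groups than in intact mice, and Tmem119 was higher in the AAV-SIRT3 group than in intact mice. None of the 9 was called lower in any comparison. The lowest difference was -0.14, for Cx3cr1 in AAV-SIRT3 against AAV-GFP (95% interval -0.25 to -0.03, adjusted p = 0.231, limma). P2ry12, the gene most often used to mark the homeostatic state, differed by -0.04 to 0.05 on the log2 scale between the groups, Siglech by 0.03 to 0.09 and Olfml3 by -0.05 to 0.08. No gene of the 9 passed between AAV-SIRT3 and AAV-GFP in limma or edgeR, while DESeq2 called Tmem119 (adjusted p = 0.0448).

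Libraries held from 47182529 to 64728587 reads assigned to genes. Th and Slc6a3, which mark dopaminergic neurons, were high in all groups, with mean normalised reads of 4711 to 5756 for Th and 8168 to 11062 for Slc6a3. They did not stay level beside the microglial differences: Slc6a3 fell by 0.44 in AAV-GFP against intact (adjusted p = 0.0263, limma), with every AAV-GFP library under every intact one, and Th differed by -0.28 (adjusted p = 0.0755). The 8 dopaminergic genes had a median of -0.30 in that comparison, with 1 called (0 with the thalamic score or without intact replicates 1, 3 and 5, and 0 to 4 leaving out 1 library) and 6 at an unadjusted p under 0.05, and a median of -0.06 with 0 called and 0 at an unadjusted p under 0.05 in AAV-SIRT3 against intact. The 1 call in AAV-GFP is 12.5% of that list, where 1.02% of all genes were called lower. In AAV-SIRT3 against intact, 10.3% of all genes were called lower and 21.7% in either direction. An unadjusted p under 0.05 was reached by 3707 of 19443 genes in AAV-GFP against intact and by 6788 in AAV-SIRT3 against intact (limma). Mouse Sirt3 was 0.13 higher on the log2 scale in AAV-SIRT3 than in AAV-GFP libraries (adjusted p = 0.183, limma). The species and sequence of the SIRT3 in the virus are not given in the sources used here, so it is not known whether its reads are counted in the mouse gene, and this value does not check the label. Genes of the neighbouring thalamus also differed from intact mice: of 10, 2 rose in AAV-GFP (median 0.70) and 8 in AAV-SIRT3 (median 0.65), with all 10 above 0 in both comparisons. These are 20% and 80% of the list, where 0.823% and 11.3% of all genes were called higher. The counts do not order the AAV groups, since between them 0 of 10 were called, with a median of 0.0008. Thalamic genes varied among intact libraries, where the summed level of 10 genes ran from 47956 to 97095, against 81411 to 93345 in AAV-GFP and 76921 to 103564 in AAV-SIRT3. Intact replicates 1, 3 and 5 had the lowest thalamic scores. The part of tissue composition in the microglial differences was not tested beyond the fits with a thalamic score and without these 3 libraries, which are given beside the results.

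The genes lie on several chromosomes in the mouse genome build GRCm38 (GENCODE M21). P2ry12 (chr3:59216272-59262871, minus strand) and P2ry13 (chr3:59207892-59210882, minus strand) are neighbours, with a gap of 5389 bp. Tmem119 (chr5:113793729-113800516), Cx3cr1 (chr9:119901616-120069879), Olfml3 (chr3:103722222-103738001) and Aif1 (chr17:35170991-35176068) are on the minus strand, and Siglech (chr7:55768178-55778925) and Gpr34 (chrX:13632089-13640858) are on the plus strand. The position of Csf1r is not reported here.

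Promoter windows of 250 bases before the start were taken from RefSeq (GRCm38.p6) for 6 of the 9 genes. Tmem119, Csf1r and Gpr34 were not searched. A motif of PU.1, the factor that defines the macrophage lineage, was searched on both strands as the letters GAGGAA. It was found in 2 of the 6 windows, those of P2ry13 and Aif1, against 23.25% of 32851 windows of all genes. All 250 bases of the P2ry12 window and of the Cx3cr1 window lay in annotated exons. The longer form GAGGAAGT (2.441% of windows) and the ETS-IRF composite element (2.301% of windows) were found in 0 of the 6. The searches overlap, since the longer form contains the shorter. The windows of P2ry13 and Aif1 are printed because they held the short match and because Aif1 was the gene that rose in both AAV groups. The P2ry13 window (chr3:59210883-59211132, minus strand) is shown with the match in capitals, its first base 48 bases before the start. In the Aif1 window the match lay on the other strand, 7 bases before the start, within the 16 bases that overlap an annotated exon and are left off, so the printed stretch (chr17:35176069-35176302, minus strand) holds no capitals.
P2ry13: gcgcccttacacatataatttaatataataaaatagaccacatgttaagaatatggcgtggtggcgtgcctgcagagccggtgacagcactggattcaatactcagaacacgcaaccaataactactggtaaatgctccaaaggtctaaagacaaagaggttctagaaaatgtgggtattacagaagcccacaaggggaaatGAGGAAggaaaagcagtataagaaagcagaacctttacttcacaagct
Aif1: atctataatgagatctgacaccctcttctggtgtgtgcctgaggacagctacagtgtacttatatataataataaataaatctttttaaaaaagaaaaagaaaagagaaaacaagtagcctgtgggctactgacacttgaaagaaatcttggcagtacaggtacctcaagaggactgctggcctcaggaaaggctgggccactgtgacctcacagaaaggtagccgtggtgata
A match describes these letters only, and whether PU.1 binds there was not measured.

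Levels were compared between genes per kilobase, with the summed length of a gene's exons. In intact libraries Csf1r was the highest, at 862 ± 50.7 normalised reads per kilobase (SD, n = 6), followed by P2ry12 at 711 ± 68.4, Cx3cr1 at 569 ± 45.5 and Tmem119 at 375 ± 26.2. Csf1r ranked first in all 18 libraries, also with the length of the main transcript. The ranges of neighbouring genes overlapped between Csf1r and P2ry12 and between P2ry12 and Cx3cr1, while Tmem119, at 345 to 417, overlapped neither Cx3cr1 nor the genes under it. Gpr34 (217 to 276), P2ry13 (188 to 257), Siglech (193 to 230) and Olfml3 (192 to 241) could not be ordered beyond their spread. Aif1 was the lowest at 129 ± 7.29 with the summed exon length, but at 225 ± 12.8 with the length of its main transcript it lay among them. With that length Siglech, at 305 to 363, overlapped Tmem119, at 356 to 431, so the order of the lower genes depends on the length used.

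The values that follow are deposited reads per gene after division by a size factor per library, called normalised reads. Fold changes are differences of log2(value + 1) from a limma model of all 3 groups, and a gene was called where its adjusted p over all 19443 genes was under 0.05. As the tissue was sequenced in bulk, fewer cells of a type and less RNA per cell cannot be told apart. Replicate numbers name 6 mice per group.

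**Figure D1:**
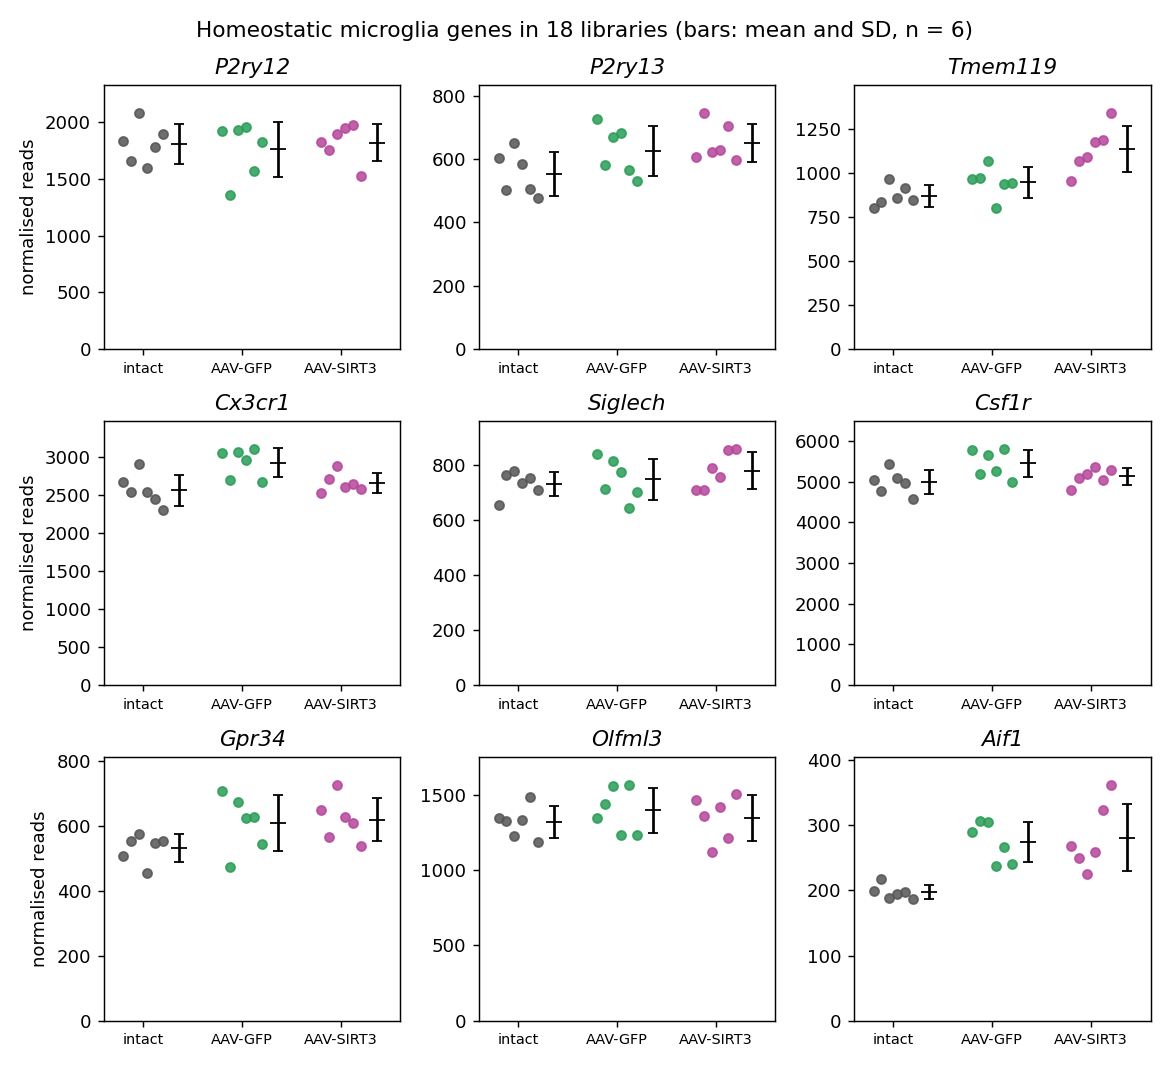
Normalised reads (vertical axis, from 0) of the 9 genes in each of the 18 libraries, with 1 point per mouse and the mean and SD of each group (n = 6) beside the points. The Aif1 points of both AAV groups lie above all intact points, from 225 against at most 218, while the P2ry12 points of the 3 groups overlap.

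In AAV-GFP against intact mice, 1 of the 9 genes was called higher, which is 11.1% of them, where 0.823% of all genes tested were called higher and 1.84% were called in either direction. With 9 genes, each gene is 11.1% of the set. The median difference was 0.13 on the log2 scale with 8 of 9 genes above 0, beside a median of 0.0007 over all genes tested. In AAV-SIRT3 against intact mice, 2 of 9 were called higher (22.2%), where 11.3% of all genes were called higher and 21.7% in either direction. That count is 1 gene from the background share. The median was 0.09 with all 9 above 0, beside -0.0049 over all genes. In AAV-SIRT3 against AAV-GFP mice, 0 of 9 were called by limma, where 0.113% of all genes were called. There, 2 of 9 had an unadjusted p under 0.05, where 2964 of 19443 genes had. Of the 9, edgeR called 0 and DESeq2 called 1, where they called 24 and 311 of all genes. Both comparisons with intact mice share the same 6 intact libraries.

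**Figure D2:**
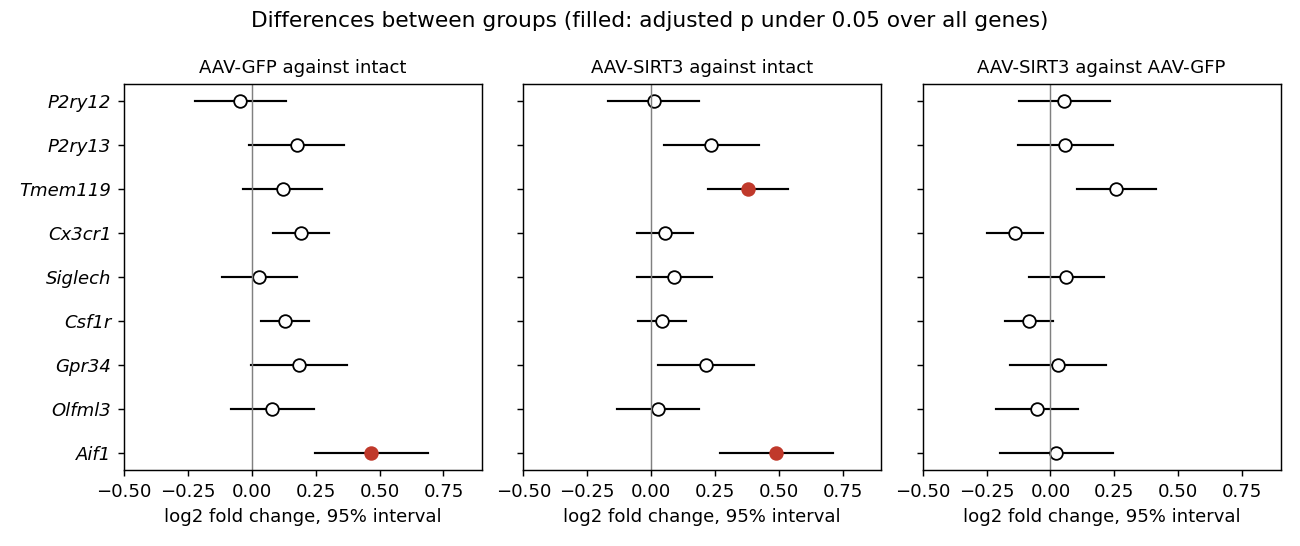
Log2 fold changes (horizontal axis) of the 9 genes with their 95% intervals in the 3 comparisons; filled points had an adjusted p under 0.05 over all genes. Aif1 is filled in both comparisons with intact mice, at 0.47 and 0.49, Tmem119 only in AAV-SIRT3 against intact, at 0.38, and no point is filled between the AAV groups.

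Aif1 encodes IBA1, a calcium-binding protein of the actin cytoskeleton that is found in microglia and in other macrophages. Its normalised reads ran from 187 to 218 (median 196) in intact, from 237 to 306 (median 278) in AAV-GFP and from 225 to 361 (median 263) in AAV-SIRT3 libraries. Every library of both AAV groups lay above every intact library, and the AAV groups overlapped each other. The difference was 0.47 (SE 0.106, 95% interval 0.25 to 0.69, adjusted p = 0.0283, limma) for AAV-GFP against intact and 0.49 (95% interval 0.27 to 0.71, adjusted p = 0.00327) for AAV-SIRT3 against intact. Between the AAV groups it was 0.02 (95% interval -0.20 to 0.24, adjusted p = 0.941). The spread was wider in AAV-SIRT3, at 18.2% of the mean, than in intact libraries, at 5.66%, where counting error alone gives about 7.08%.

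The call of Aif1 in AAV-GFP depended on single libraries. It was lost without intact replicate 3 (0.45, adjusted p = 0.0712), 4 (0.46, 0.0608) or 5 (0.47, 0.0565), and without AAV-GFP replicate 2 (0.43, 0.0668), 3 (0.44, 0.0679) or 5 (0.47, 0.0514). The size of the difference moved little in these fits, from 0.43 to 0.47. With the thalamic score as a covariate it was 0.49 (adjusted p = 0.22), and without intact replicates 1, 3 and 5 it was 0.45 (adjusted p = 0.26), in a fit with 3 intact libraries. The Aif1 call in AAV-SIRT3 was kept in 32 of 32 alternative fits, at 0.39 to 0.55 with adjusted p from 0.000204 to 0.0405.

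Since other macrophages also express Aif1, Csf1r and Cx3cr1, their marker genes were examined beside it. The summed level of 10 genes of border-associated macrophages, the macrophages of the meninges and vessel walls, ran from 652 to 1254 in intact, 620 to 1347 in AAV-GFP and 642 to 1132 in AAV-SIRT3 libraries. Of these, 9 could be tested and 0 were called by limma in any comparison, and edgeR and DESeq2 called 0. In AAV-GFP against intact, AAV-SIRT3 against intact and AAV-SIRT3 against AAV-GFP, 0, 0 and 1 had an unadjusted p under 0.05. Over all genes, 3707, 6788 and 2964 of 19443 had, and limma called 1.84%, 21.7% and 0.113%, also the background of the lists that follow. Mrc1, the mannose receptor of border-associated macrophages, had means of 376, 402 and 286 normalised reads in intact, AAV-GFP and AAV-SIRT3 libraries. The 12 genes of monocytes and neutrophils summed to 75.2 to 188 in intact, 66.8 to 266 in AAV-GFP and 87.1 to 396 in AAV-SIRT3 libraries, and 8 of them were under the filter. Of the other 4, limma, edgeR and DESeq2 called 0, and 0 had an unadjusted p under 0.05. Ccr2, the chemokine receptor of inflammatory monocytes, had means of 55.2, 54.4 and 53.7. Ly6c2 and Plac8, other monocyte genes of the list, were under the filter and are named after their values were seen. Ly6c2 had means of 3.78, 5.57 and 44.3 in intact, AAV-GFP and AAV-SIRT3 libraries, with a median of 15.9 in AAV-SIRT3 and 207 in replicate 6, which also had the highest Aif1. Plac8 had means of 1.33, 5.30 and 12.02, with 31.5 in the same library. Of 12 T cell genes, 5 could be tested, with 0 called by limma, edgeR or DESeq2 and 0 at an unadjusted p under 0.05. Of the 5, 4 were above 0 in each comparison with intact, with medians of 0.25 in AAV-GFP and 0.51 in AAV-SIRT3. The sum of the 12 ran from 298 to 398 in intact, 344 to 503 in AAV-GFP and 344 to 484 in AAV-SIRT3 libraries. No gene of these 3 lists was at 0 in every library. The part of these cells in the Aif1 difference was not tested.

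Tmem119 encodes a transmembrane protein that is largely specific to microglia among brain macrophages. Its normalised reads ran from 799 to 966 (median 850) in intact, from 798 to 1067 (median 953) in AAV-GFP and from 953 to 1337 (median 1132) in AAV-SIRT3 libraries. In AAV-SIRT3, 5 of 6 libraries lay above the highest intact library, and the lowest lay within the intact range. The difference from intact was 0.38 (SE 0.0745, 95% interval 0.22 to 0.53, adjusted p = 0.00181, limma), a mean 30.6% higher. For AAV-GFP against intact it was 0.12 (95% interval -0.03 to 0.28, adjusted p = 0.395).

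Tested directly between the AAV groups, the Tmem119 difference was 0.26 (95% interval 0.10 to 0.41), higher in AAV-SIRT3 in 32 of 36 pairs of libraries, with an adjusted p of 0.134 in limma. It passed in 1 of 32 alternatives, DESeq2, at an adjusted p of 0.0448, and the adjusted p over all alternatives ran from 0.0448 to 0.278. The AAV-SIRT3 difference from intact was kept in 32 of 32 alternatives, at 0.31 to 0.46. The lower end, 0.31, was with the trend of fold change with transcript length removed, and the upper end, 0.46, with the thalamic score as a covariate.

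Cx3cr1 encodes the receptor for fractalkine, the ligand displayed by neurons and encoded by Cx3cl1. Its normalised reads ran from 2300 to 2901 (median 2537) in intact, from 2666 to 3104 (median 3011) in AAV-GFP and from 2523 to 2880 (median 2623) in AAV-SIRT3 libraries. In AAV-GFP, 4 of 6 libraries lay above the highest intact library, and the AAV-SIRT3 range lay inside the intact range. The difference was 0.19 (95% interval 0.08 to 0.30, adjusted p = 0.0615, limma) for AAV-GFP, 0.05 (-0.06 to 0.16, adjusted p = 0.501) for AAV-SIRT3 and -0.14 (-0.25 to -0.03, adjusted p = 0.231) between the AAV groups. The AAV-GFP difference passed with DESeq2 (0.19, adjusted p = 0.0235), with the replicate block (0.19, adjusted p = 0.0377), without intact replicate 3 (0.23, adjusted p = 0.0445) and without AAV-GFP replicate 6 (0.22, adjusted p = 0.0426). Cx3cl1 itself differed from intact by 0.11 in AAV-GFP (adjusted p = 0.315) and 0.14 in AAV-SIRT3 (adjusted p = 0.0886).

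Csf1r encodes the receptor for the growth factors CSF1 and IL-34, on which microglia depend for survival. Its normalised reads ran from 4580 to 5439 (median 5003) in intact, from 4989 to 5797 (median 5466) in AAV-GFP and from 4794 to 5368 (median 5137) in AAV-SIRT3 libraries, and the 3 groups overlapped. The differences were 0.13 (95% interval 0.03 to 0.22, adjusted p = 0.123, limma) for AAV-GFP, 0.04 (-0.05 to 0.14, adjusted p = 0.53) for AAV-SIRT3 and -0.09 (-0.18 to 0.01, adjusted p = 0.37) between the AAV groups. The exons of Csf1r share 873 bases (15.1% of its exon length) with Hmgxb3 on the opposite strand, and Hmgxb3 differed by -0.06, -0.10 and -0.05 in the same comparisons with none called. The strand setting of the read counting is not given in the sources used here. Of its ligands, Csf1 differed from intact by -0.03 in AAV-GFP (adjusted p = 0.825) and -0.11 in AAV-SIRT3 (adjusted p = 0.187), and Il34 by -0.06 (adjusted p = 0.684) and 0.03 (adjusted p = 0.783).

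P2ry12 encodes the ADP receptor that directs microglial processes. Its normalised reads ran from 1593 to 2081 (median 1810) in intact, from 1359 to 1960 (median 1876) in AAV-GFP and from 1527 to 1978 (median 1860) in AAV-SIRT3 libraries, and the 3 groups overlapped. The differences were -0.04 (95% interval -0.22 to 0.13, adjusted p = 0.822, limma), 0.01 (-0.17 to 0.19, adjusted p = 0.948) and 0.05 (-0.12 to 0.23, adjusted p = 0.808). These intervals leave room for a difference of about 0.2 on the log2 scale in either direction.

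P2ry13, a neighbouring ADP receptor gene, ran from 476 to 650 (median 545) in intact, from 529 to 728 (median 625) in AAV-GFP and from 596 to 744 (median 625) in AAV-SIRT3 libraries. It differed from intact by 0.18 (95% interval -0.01 to 0.36, adjusted p = 0.29, limma) and 0.23 (0.05 to 0.42, adjusted p = 0.0646). The latter passed without intact replicate 3, at 0.28 (adjusted p = 0.0352). Gpr34, a receptor for lysophosphatidylserine, ran from 455 to 576 (median 551) in intact, from 475 to 708 (median 627) in AAV-GFP and from 539 to 727 (median 619) in AAV-SIRT3 libraries. It differed by 0.18 (-0.004 to 0.37, adjusted p = 0.274) and 0.21 (0.03 to 0.40, adjusted p = 0.0954), and the groups overlapped for both genes. Between the AAV groups P2ry13 differed by 0.06 and Gpr34 by 0.03.

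Siglech, a sialic acid-binding receptor of microglia, ran from 652 to 777 (median 741) in intact, from 641 to 839 (median 743) in AAV-GFP and from 708 to 856 (median 771) in AAV-SIRT3 libraries. Olfml3, a secreted olfactomedin-like protein, ran from 1185 to 1485 (median 1328), from 1231 to 1564 (median 1391) and from 1116 to 1502 (median 1390) in the same order. Both genes overlapped in all 3 groups. The differences of Siglech were 0.03, 0.09 and 0.06, and those of Olfml3 0.08, 0.03 and -0.05, none of them called.

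Ratios within a library compare the genes with each other without a scaling between libraries. Relative to Csf1r, Tmem119 was 0.34 higher on the log2 scale in AAV-SIRT3 than in intact libraries, with 6 of 6 AAV-SIRT3 libraries above the highest intact one, and -0.007 in AAV-GFP. Relative to Csf1r, Aif1 was 0.34 higher in AAV-GFP and 0.45 higher in AAV-SIRT3, with 5 of 6 libraries of each above the highest intact one. The ratio of Tmem119 to Cx3cr1 ran from 0.3 to 0.373 in intact, from 0.269 to 0.358 in AAV-GFP and from 0.378 to 0.519 in AAV-SIRT3 libraries. On that ratio AAV-SIRT3 did not overlap the other groups, while intact and AAV-GFP overlapped. This ratio was chosen after the values were seen and was not tested.

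**Figure D3:**
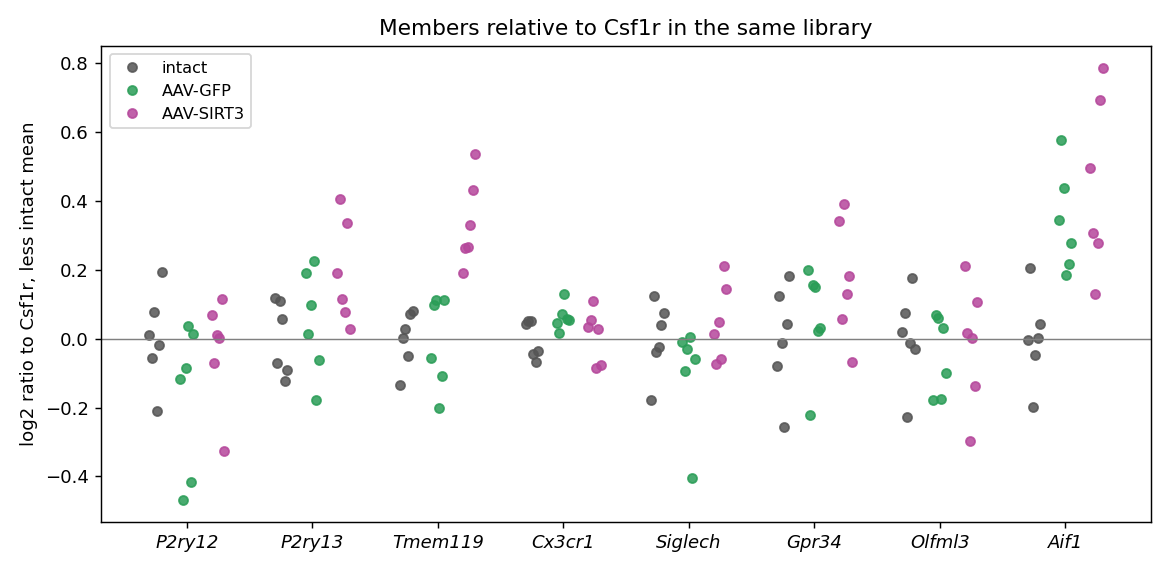
Log2 ratio of each gene to Csf1r in the same library, less the intact mean of that ratio (vertical axis), with 1 point per library and colours for the 3 groups. Tmem119 in AAV-SIRT3 (6 of 6 libraries above the highest intact one, mean 0.34) and Aif1 in both AAV groups (5 of 6 each) stand mostly above the intact points. All 6 AAV-GFP points of Cx3cr1 lie above 0, by a mean of 0.06, and 4 of them above the highest intact one.

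The genes did not vary as 1 block between mice of a group. Over the 36 pairs of genes, Pearson correlations of the deviations from the group means in 18 libraries had a median of 0.28 and ran from -0.46 to 0.79, with 25 above 0. Cx3cr1 and Csf1r varied most alike (0.79), then P2ry12 and Gpr34 (0.72) and P2ry13 and Cx3cr1 (0.68). P2ry12 ran opposite to Olfml3 (-0.46) and Aif1 (-0.42), while Tmem119 and Aif1 had 0.58. The values of a library share its depth, its dissection and its size factor. A pair of libraries shows the contrast: AAV-SIRT3 replicate 6 had the highest Aif1 (361) and Tmem119 (1337) of its group and the lowest P2ry12 (1527), and AAV-GFP replicate 2 had the highest Aif1 (306) and the lowest P2ry12 (1359) of its own. Without these 2 libraries, chosen after the values were seen, Aif1 differed from intact by 0.43 (adjusted p = 0.0362) and 0.41 (adjusted p = 0.00604), Tmem119 in AAV-SIRT3 by 0.33 (adjusted p = 0.0034), and Gpr34 in AAV-SIRT3 passed at 0.25 (adjusted p = 0.0286). P2ry12 in AAV-GFP was then 0.03.

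**Figure D4:**
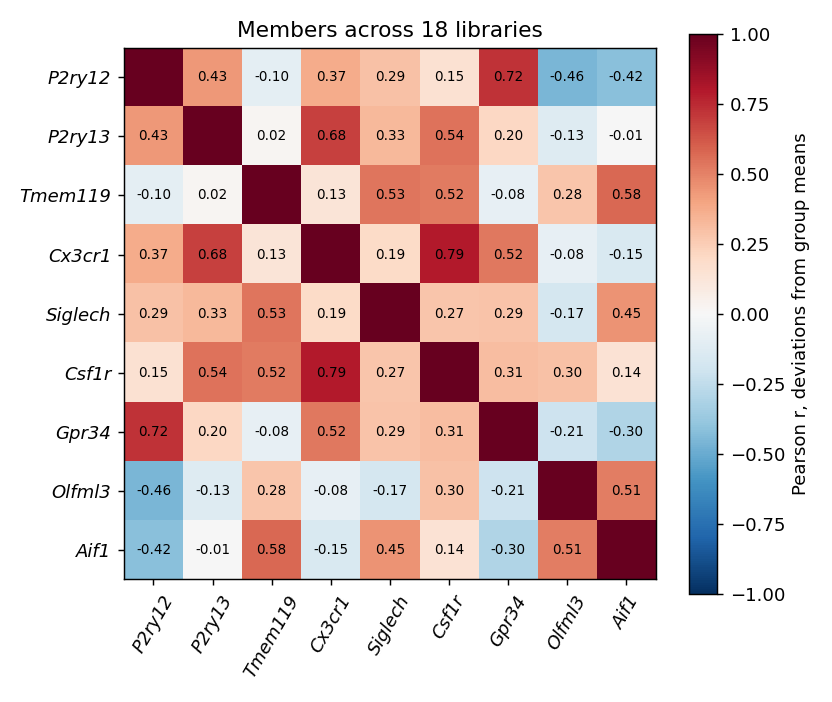
Pearson correlations (colour and printed value) of the deviations of each gene from its group means over 18 libraries. Cx3cr1 and Csf1r (0.79) and P2ry12 and Gpr34 (0.72) are the highest pairs, and P2ry12 with Olfml3 (-0.46) and with Aif1 (-0.42) the lowest.

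Other microglial genes were set beside the 9. The tissue was sequenced in bulk, so reads of these lists, of the activated genes and of the transcription factors may also come from other cells. The cells they came from were not measured. In a list of 28 further microglial signature genes, 11 rose in AAV-GFP and 0 fell, with a median of 0.21. In AAV-SIRT3, 13 rose and 1 (Adgrg1, -0.15) fell, with a median of 0.20. The rises are 39.3% of the list in AAV-GFP, where 0.823% of all genes were called higher. In AAV-SIRT3 46.4% of the list rose and 3.57% fell, where 11.3% and 10.3% of all genes were called higher and lower. The complement genes C1qa, C1qb and C1qc rose in both AAV groups, C1qa by 0.61 (adjusted p = 0.00436, limma) and 0.52 (adjusted p = 0.00169). Trem2, a lipid-sensing receptor of phagocytic microglia, rose by 0.56 (adjusted p = 0.0164) and 0.38 (adjusted p = 0.0204). Without intact replicates 1, 3 and 5, 0 of the 28 rose in AAV-GFP and 9 rose in AAV-SIRT3, and with the thalamic score as a covariate 7 and 9 rose. How many of all genes were called in these fits is given under the dependence on the processing. In the fit with 3 intact libraries the differences in AAV-GFP were 0.64 for C1qa (adjusted p = 0.0805), 0.51 for C1qb (0.106), 0.47 for C1qc (0.0841) and 0.61 for Trem2 (0.123), so the calls were lost at differences of similar size. In AAV-SIRT3, Trem2 was 0.43 (adjusted p = 0.0611) and Adgrg1 -0.11 (adjusted p = 0.193), while the 3 complement genes kept their calls. Leaving out 1 library gave 8 to 13 in AAV-GFP and 9 to 14 in AAV-SIRT3.

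In a list of 21 genes of activated microglia, 15 rose and 0 fell in AAV-GFP, with a median of 0.52, and 10 rose and 0 fell in AAV-SIRT3, with a median of 0.13. The rises are 71.4% of the list in AAV-GFP, where 0.823% of all genes were called higher. In AAV-SIRT3 they are 47.6%, where 11.3% of all genes were called higher. Itgax, an integrin of activated microglia, ran from 4.17 to 27.2 normalised reads in intact, from 56 to 152 in AAV-GFP and from 15.6 to 72 in AAV-SIRT3 libraries. Its difference from intact was 2.80 (adjusted p = 0.00131) and 1.23 (adjusted p = 0.0281), and between the AAV groups -1.57 (adjusted p = 0.105). Clec7a, the receptor dectin-1, rose by 2.59 (adjusted p = 0.00028) and 0.92 (adjusted p = 0.0309). Between the AAV groups Clec7a (-1.67, adjusted p = 0.0168) and Gpnmb (-2.08, adjusted p = 0.00198) were lower in AAV-SIRT3. They are 9.52% of the list, where 0.0771% of all genes were called lower. The Gpnmb call was kept in 32 of 32 alternatives and that of Clec7a in 26. From intact, the calls of Itgax and Clec7a were kept in 32 of 32 for AAV-GFP and in 22 of 32 each for AAV-SIRT3. Without intact replicates 1, 3 and 5, 5 of the 21 rose in AAV-GFP and 3 in AAV-SIRT3, where Itgax was 1.44 (adjusted p = 0.07) and Clec7a 0.95 (adjusted p = 0.117), and with the thalamic score 7 and 5. The calls over all genes in these fits are also given under the dependence on the processing. Leaving out 1 library gave 8 to 16 in AAV-GFP and 5 to 10 in AAV-SIRT3. Between the AAV groups 1 to 7 were lower, the 7 with DESeq2 among others. The largest difference among the 9 homeostatic genes was 0.49. Whether these lists differ from the 9 was not tested.

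**Figure D5:**
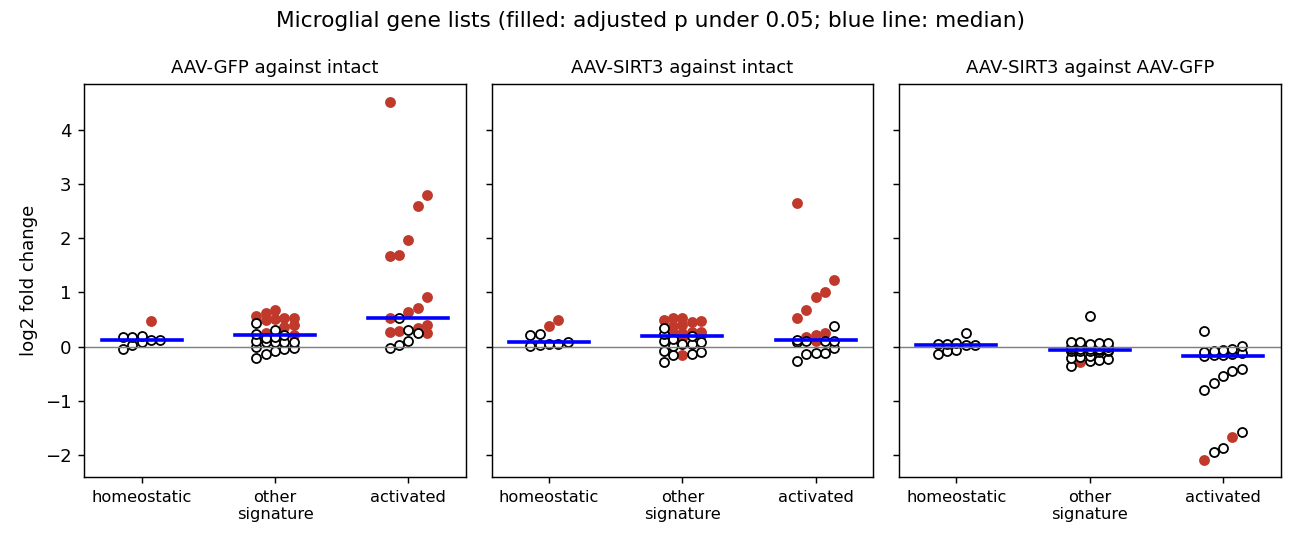
Log2 fold changes (vertical axis) of the 9 homeostatic genes, 28 other microglial signature genes and 21 activated microglia genes in the 3 comparisons, with 1 point per gene, filled where the adjusted p was under 0.05 and with a blue line at the median of each list. Medians in AAV-GFP against intact are 0.13, 0.21 and 0.52, and in AAV-SIRT3 against intact 0.09, 0.20 and 0.13.

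Among 15 transcription factors of microglia, 1 rose in AAV-GFP (6.67%, where 0.823% of all genes were called higher) and 4 rose in AAV-SIRT3 (26.7%, where 11.3% were). With 15 genes, each is 6.67% of the list. Irf8 rose by 0.47 (adjusted p = 0.0319, limma) and 0.45 (adjusted p = 0.00618), and Cebpa and Bhlhe41 were among those that rose in AAV-SIRT3, by 0.38 and 0.24. In the alternatives the Irf8 call was kept in 22 of 32 for AAV-GFP and 32 of 32 for AAV-SIRT3, that of Bhlhe41 in 32 and that of Cebpa in 21. Without intact replicates 1, 3 and 5, Irf8 in AAV-GFP was 0.51 (adjusted p = 0.163) and Cebpa in AAV-SIRT3 0.40 (adjusted p = 0.102). Sall1, which maintains microglial identity, differed from intact by -0.03 (adjusted p = 0.807) and -0.11 (adjusted p = 0.181), and Spi1, which encodes PU.1, by 0.37 (adjusted p = 0.214) and 0.06 (adjusted p = 0.834). Among 17 ligands and signalling partners of the 9 genes, 1 rose in AAV-GFP, which was Tyrobp at 0.67 (5.88% of the list). In AAV-SIRT3, 2 rose, Tyrobp (0.47) and P2rx4 (0.16), and 3 fell: Nt5e, which makes adenosine from AMP, by 0.34, P2rx7, an ATP-gated channel, by 0.24, and Tgfb2 by 0.21. These counts are 11.8% higher and 17.6% lower, where 11.3% and 10.3% of all genes were called higher and lower, so the rises are at the background share and the falls are within 2 genes of it. Of these, Tyrobp (30 of 32) and Nt5e (31 of 32) kept their call in nearly all alternatives, while P2rx4 kept it in 12, P2rx7 in 19 and Tgfb2 in 20. Without intact replicates 1, 3 and 5, Tyrobp was 0.58 in AAV-GFP (adjusted p = 0.169) and 0.37 in AAV-SIRT3 (0.115), P2rx4 0.10 (0.367), P2rx7 -0.30 (0.0565) and Tgfb2 -0.22 (0.145). Of 16 cell cycle genes 13 could be tested and 0 were called by limma in any comparison, or by edgeR and DESeq2. In AAV-GFP against intact, AAV-SIRT3 against intact and AAV-SIRT3 against AAV-GFP, 0, 3 and 2 had an unadjusted p under 0.05. Over all genes, 3707, 6788 and 2964 of 19443 had, and 1.84%, 21.7% and 0.113% were called. Up to 2 of the cell cycle genes were called higher in AAV-SIRT3 against intact among the 32 alternatives. Cdk1, the mitotic kinase, and Ccnb2, its cyclin, named after their values were seen, differed there by 0.71 (adjusted p = 0.0746) and 0.59 (adjusted p = 0.0835), at means of 13.3 against 21.9 and 34.3 against 52.4 normalised reads. Mcm2, also at an unadjusted p under 0.05 there, went the other way, at -0.19 (adjusted p = 0.111, limma). The 13 genes had a median of 0.02 in that comparison, with 7 above 0 and a lowest value of -0.30. Mki67, a marker of dividing cells, had means of 53.4, 46.4 and 53.7 normalised reads in intact, AAV-GFP and AAV-SIRT3 libraries.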

How the data were processed

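Groups and replicate numbers came from the sample titles, and 0 sample columns of the table went unmatched. The 9 genes, the lists and the alternatives were chosen with earlier results of these data known. The deposited signal per gene holds, per the name of the table, HTSeq read counts normalised by DESeq2. The submitters' processing notes name HISAT2 2.1.0, DESeq2 1.34.0 and mm10, and the annotation and strand setting of the counting are not given in the sources used here. Libraries were made from poly-A RNA with a stranded kit and read in pairs of 100 bp, per the labels' protocols. Multiplied by 1 size factor per library, 100% of the values above 0 came out whole within 1e-06 (largest deviation 4.4e-09), with weaker proof where that factor was near 1 (intact replicate 4, AAV-SIRT3 replicate 4).

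Genes reaching 10 in 6 or more libraries were tested in R 4.3.3 with limma 3.58.1 on log2(value + 1), with a variance trend, 15 degrees of freedom for the residuals and p-values adjusted by Benjamini-Hochberg at 0.05. Fold changes on that scale understate changes of low genes. edgeR 4.0.16 called 362, 4086 and 24 genes from the recovered reads, where limma called 358, 4214 and 22 (AAV-GFP against intact, AAV-SIRT3 against intact, AAV-SIRT3 against AAV-GFP). DESeq2 1.42.0 was a further alternative. On simulated counts for 19443 genes, 84% of 200 planted changes were found with 8 false calls. Each planted change was larger than the largest difference of the 9 genes, 0.49, and the spread was fixed for all genes. The 84% therefore does not give the power for differences of the size reported here. The 9 genes were named in any case. Genes of the other lists were named when called, up to 6 per list and comparison, and 15 were fixed by name. Some genes of these lists are not reported here. Positions come from GENCODE M21, matched by symbol. Counting intervals cover counting error alone, since the reads carry no molecular identifiers. None of 30 groups of values held a library past Dixon's limit of 0.625, and chance alone flags about 1 in 20.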

Additional observations from a re-analysis of the deposited data

How the results depend on the processing

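Over 32 alternatives, 27 differences of the 9 genes gave 864 fits, of which 822 kept their direction and side of the threshold, 8 lost a call, all of Aif1 in AAV-GFP against intact, 7 gained one and 27 changed sign. In AAV-GFP against intact, all genes called came to 164 with all genes above 0, 999 with DESeq2, 199 with only the groups compared, 31 with the thalamic score, 10 without intact replicates 1, 3 and 5, 230 without AAV-GFP replicate 2 and AAV-SIRT3 replicate 6, and from 129 to 686 leaving out 1 library, the lowest without intact replicate 3 and the highest without AAV-GFP replicate 1. The 9 genes gave 2 calls with DESeq2, 2 with the replicate block, 0 with the thalamic score, 0 without intact replicates 1, 3 and 5, and 0 to 2 leaving out 1 library. In AAV-SIRT3 against intact, all genes came to 1563 with the thalamic score and 1686 without intact replicates 1, 3 and 5. In AAV-SIRT3 against AAV-GFP, they came to 311 with DESeq2, 8 with only the groups compared, 13 with the replicate block, 357 without AAV-GFP replicate 2 and AAV-SIRT3 replicate 6, and from 5 (AAV-SIRT3 replicate 5 left out) to 861 (AAV-GFP replicate 2 left out) leaving out 1 library, and the 9 genes gave 1 call with DESeq2. The cause of these moves was not tested. Both settings that leave out several libraries were added after seeing the data.

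Changes of sign were all in differences near 0 that were not called. P2ry12 in AAV-GFP against intact became 0.021 with the thalamic score, 0.029 without intact replicates 1, 3 and 5, 0.028 without AAV-GFP replicate 2 and AAV-SIRT3 replicate 6, and ran from -0.080 to 0.028 leaving out 1 library. P2ry12 in AAV-SIRT3 against intact became -0.0049 with quantile normalisation and -0.055 with the length trend removed, and ran from -0.026 to 0.060 leaving out 1 library. Without AAV-GFP replicate 2 and AAV-SIRT3 replicate 6, Olfml3 in AAV-SIRT3 against intact was -0.0065, and between the AAV groups Gpr34 was -0.00026 and Aif1 -0.020. With the length trend removed, Gpr34 and Aif1 between the AAV groups were -0.0093 and -0.028. Leaving out 1 library, Siglech in AAV-GFP against intact ran from -0.0053 to 0.072, Olfml3 in AAV-SIRT3 against intact from -0.0065 to 0.079, and between the AAV groups P2ry12 from -0.019 to 0.10, Gpr34 from -0.039 to 0.076 and Aif1 from -0.053 to 0.083. Correlations of same-numbered libraries ran from -0.095 to 0.175. Nothing in the labels says that the replicate numbers pair the mice. These values cannot exclude a pairing, since differently numbered libraries were not set beside them. The replicate block changed the call of Cx3cr1 in AAV-GFP alone among the 9 genes.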

Other observations

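P2ry12 and P2ry13 lie inside Med12l, a gene of a Mediator complex subunit on the opposite strand, and P2ry12 shares 9 exon bases with it. Med12l had 2873 to 3208 normalised reads in intact, 1904 to 2847 in AAV-GFP and 1966 to 2691 in AAV-SIRT3 libraries, and every library of both AAV groups lay under every intact one. It differed from intact by -0.30 in AAV-GFP (adjusted p = 0.0537, limma) and fell by 0.45 in AAV-SIRT3 (adjusted p = 0.0012, kept in 32 of 32 alternatives), while P2ry12 differed by -0.04 and 0.01. Med12l was chosen for its position, as were Cask, within which Gpr34 lies, and Csrnp1 and Wdr48, which overlap the span of Cx3cr1. Cask differed from intact by 0.04 in AAV-GFP and 0.06 in AAV-SIRT3, and Csrnp1 by -0.01 and -0.07, with none called. Wdr48 had means of 3154, 2919 and 2783 normalised reads in intact, AAV-GFP and AAV-SIRT3 libraries.

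The 10 genes outside the 9 whose deviations from group means were most like the mean of the 9 over 18 libraries had Pearson correlations from 0.73 to 0.86. Of these, Mpeg1, the pore-forming perforin-2 of macrophages, was the highest in level, with a mean of 1918 normalised reads and a correlation of 0.74. It rose by 0.60 in AAV-GFP (adjusted p = 0.000514, limma) and 0.28 in AAV-SIRT3 (adjusted p = 0.0128). Entpd1, which degrades ATP and ADP outside the cell, had a correlation of 0.74 and differed from intact by 0.09 and 0.04, with neither called. Lat2, an adaptor of immune receptors, had a correlation of 0.80 at a mean of 72.9 normalised reads. The genes with the highest value, 2310016G11Rik (0.86), and the lowest level, Gm16525 (7.58 normalised reads), are near the filter, where counting error is large. The 10 also held Zfp119b (0.75), Dnah8 (0.73) and Gm14387 (0.80), which fell by 0.90 in AAV-SIRT3 against intact (adjusted p = 0.0091, limma). These correlations are the highest among all genes tested, over 18 libraries, so they are high in part by selection. Whether they exceed chance was not tested.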
